A study of Mus musculus with 9 samples.

Results

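Transcripts of 6 genes of the CXCL12 and apelin signalling systems were followed in 3 cultured mouse stem cell types. They are the ligand gene Cxcl12 with the receptor genes Cxcr4 and Ackr3, and the ligand genes Apln and Apela with the receptor gene Aplnr. Rows were taken by gene symbol from a table of 54878 entries, and each of the 6 symbols matched 1 row. The genes were chosen by their measured levels and log2 fold changes between these same cell types, so their differences between cell types are given as a description, with errors and without p-values.

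ABSC grew in Activin A and BMP4 and were collected at passages 25 to 30. ALSC, at passages 20 to 25, are taken to be the cells kept with LIF (leukaemia inhibitory factor) beside Activin A, although the protocol prints the LIF recipe under the abbreviation of the BMP4 medium. AFSC grew in Activin A and bFGF, at passages 15 to 20, and came from blastocysts; the other cell types were made from them by passaging in the new medium. All were Sv129 x GOF/GFP F1 cells in the same basal medium with Activin A, with 3 libraries for each cell type. The labels do not say whether libraries came from separate lines or cultures, so errors measure the spread between libraries. Passage, and possibly the RNA kit, differed with the cell type and cannot be told apart from it.

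CXCL12 is a secreted chemokine with a pair of receptors. CXCR4 couples to inhibitory G proteins and steers migrating cells, including endoderm, germ cells and blood progenitors in mouse embryos. ACKR3 recruits arrestin, internalises CXCL12 and so limits how much of it reaches CXCR4. Apelin and the product of Apela, also called ELABELA or Toddler, are short peptides that share the receptor APLNR; in zebrafish Toddler guides mesendoderm during gastrulation. In mouse embryonic stem cells, Apela RNA has also been described as a regulator of p53-dependent death.

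The libraries held 19020419 to 21627656 reads counted. Levels are CPM, read counts scaled to library size, here with TMM factors, and 3 reads corresponded to 0.138 to 0.157 CPM. Pou5f1, the pluripotency factor, stood at 1226 ± 42.4 CPM in ABSC, 935 ± 30.6 CPM in ALSC and 1074 ± 42.5 CPM in AFSC (SD, n = 3). Of 8 epiblast markers, Pou5f1 among them, 2 rose and 5 fell in ABSC over AFSC, beside 7.98% of all genes. The rises were Pou5f1 and Nanog, lost in 10 and 6 of 16 other settings of the fit. Among the falls, Dnmt3b was lost in 5 of the 16, Otx2 in 3 and Sox2 in 1, and Fgf5 and Pou3f1 in 0. In ALSC over AFSC, 1 rose and 4 fell, beside 7.04%, and 3 rose and 3 fell in ABSC over ALSC, beside 11.0%. The fall of Pou5f1 in ALSC over AFSC was lost in 11 settings and that of Utf1 in 1. Utf1 rose in ABSC over ALSC, a call lost in 7. Fgf5 stood at 16.3 ± 2.52 CPM in ABSC, 147 ± 24.3 CPM in ALSC and 189 ± 4.76 CPM in AFSC. The label likens ABSC to trophoblast stem cells. The 7 trophoblast regulators read for this label summed to 402 to 479.9 CPM in ABSC, 160 to 296 CPM in ALSC and 189 to 258 CPM in AFSC. The sum averaged 446, 248 and 229 CPM in the same order, and most of the gap to ABSC came from Hand1 alone. Hand1 stood at 213 ± 28.7 CPM in ABSC, 2.08 ± 0.388 CPM in ALSC and 0.240 ± 0.119 CPM in AFSC, and Cdx2 at 4.45 ± 3.13, 0.0858 ± 0.0781 and 0.126 ± 0.118 CPM in the same order. Both rose in ABSC over AFSC (edgeR adjusted p = 9.17e-09 for Hand1 and 0.00839 for Cdx2, which was 0.0659 without a filter on low counts). They were 2 of the 5 list genes tested, beside 7.98% of all genes, and both also rose over ALSC, beside 11.0%. In ALSC over AFSC, 2 of the 5 rose, beside 7.04%: Hand1 (log2 3.08, edgeR adjusted p = 0.000701) and Tfap2c (2.30, edgeR adjusted p = 0.0192). The Tfap2c call was lost without AFSC 1, AFSC 3, ALSC 2 or ALSC 3 (edgeR adjusted p = 0.0548 to 0.0841) and without a filter on low counts (0.120). Eomes averaged 117 ± 68.8, 127 ± 64.0 and 122 ± 38.1 CPM in ABSC, ALSC and AFSC, a wide spread between libraries. In the same order Esrrb averaged 102 ± 14.5, 100.03 ± 10.7 and 102 ± 5.87 CPM, and Tfap2c 8.64 ± 5.02, 18.7 ± 2.66 and 3.79 ± 1.59 CPM. Gata3 was at 0.750 ± 0.353 CPM in ABSC, and Elf5 at 0.0332 CPM was below the 3-read level there. Libraries numbered 1 stood apart from numbers 2 and 3 in each cell type: 21.5% of the 16178 genes tested were higher in library 1 than in both others in all 3 cell types, and 20.2% were lower. For the 6 genes, log2 fold changes that moved by more than the spread between libraries are given with and without these libraries. More companion genes were called without them, and those counts are given for each list only in part.

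Cxcl12 (ENSMUSG00000061353, chromosome 6, 117168535 to 117181367, plus strand, GRCm38) was the most abundant of the 6 in ABSC. It stood at 112, 111 and 137 CPM in the 3 ABSC libraries, at 27.8, 38.9 and 46.8 CPM in ALSC, and at 28.2, 26.3 and 31.8 CPM in AFSC. Every ABSC library lay above every library of the other cell types, while ALSC and AFSC overlapped. The means were 120.2 ± 14.5 CPM in ABSC, 37.9 ± 9.51 CPM in ALSC and 28.8 ± 2.77 CPM in AFSC. The ligand transcript was thus 4.18-fold higher in ABSC than in AFSC (log2 fold change 2.06, SE 0.17) and 3.18-fold higher in ABSC than in ALSC (1.67, SE 0.17). ALSC and AFSC differed by 0.40 on the log2 scale (SE 0.17). In bulk RNA, more cells with the transcript and more of it per cell cannot be told apart. The comparisons of ABSC and of ALSC with AFSC share the AFSC libraries, so their values are given side by side and not set against each other.

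The 250 bases before the Cxcl12 start are shown because Cxcl12 was highest with BMP4, and those before Apln because that gene ran the other way. They come from RefSeq (GRCm38.p6), which held such a sequence for 5 of the 6 genes, and are printed 5′ to 3′ on the strand of the gene. Capitals mark matches to the motifs searched on both strands.
Cxcl12, chr6:117168285-117168534, plus strand: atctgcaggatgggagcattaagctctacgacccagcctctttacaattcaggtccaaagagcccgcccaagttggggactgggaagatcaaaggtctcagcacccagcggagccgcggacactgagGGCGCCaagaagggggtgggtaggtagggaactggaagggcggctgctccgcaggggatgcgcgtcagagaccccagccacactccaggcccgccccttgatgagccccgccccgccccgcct
Apln, chrX:48034854-48035103, minus strand: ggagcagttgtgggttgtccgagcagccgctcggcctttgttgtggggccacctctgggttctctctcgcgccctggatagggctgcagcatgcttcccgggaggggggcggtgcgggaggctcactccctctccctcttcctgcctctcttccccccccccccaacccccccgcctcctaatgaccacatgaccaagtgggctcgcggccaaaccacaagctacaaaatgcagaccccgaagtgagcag
The motifs were GGCGCC, which SMAD proteins downstream of BMP can bind, the STAT form TTCNNNGAA, the hypoxia core ACGTG, the octamer ATGCAAAT and the paired SMAD box GTCTAGAC. GGCGCC occurred once before Cxcl12, starting 123 bases upstream, and in 9.59% of 32817 promoters of that length. The others occurred in 7.01%, 16.6%, 1.60% and 0.168% of promoters in the order named, and in no such window of Cxcl12, Cxcr4, Ackr3, Apela or Apln. The Cxcl12 window held 64.4% G and C, and the Apln window 65.2%. A match in these letters is a description and does not show that a factor was bound.

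The receptor genes of CXCL12 were scarce in all 3 cell types, with means of at most 3.43 CPM, and had their highest means in ALSC. Cxcr4 (ENSMUSG00000045382, chromosome 1, 128588199 to 128592293, minus strand) had 24, 12 and 9 reads in the ABSC libraries, 69, 45 and 39 in ALSC, and 50, 14 and 13 in AFSC. Those reads correspond to 1.18, 0.628 and 0.455 CPM in ABSC, 3.17, 2.35 and 1.99 CPM in ALSC, and 2.58, 0.661 and 0.611 CPM in AFSC. All ALSC libraries lay above all ABSC libraries, and AFSC overlapped with both: its libraries 2 and 3 lay within the ABSC range, and its library 1 within the ALSC range. The level was 3.30-fold lower in ABSC than in ALSC (log2 -1.72, SE 0.56).

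The size of the Cxcr4 differences from AFSC depended on AFSC 1. The log2 fold change of ABSC over AFSC was -0.74 (SE 0.58) with all libraries and -0.23 (SE 0.44) without the libraries numbered 1. It was 0.25 (SE 0.45) without AFSC 1 alone, so its direction turned there. That of ALSC over AFSC was 0.98 (SE 0.53) with all libraries and 1.96 (SE 0.42) without AFSC 1. Within each library number ALSC lay above AFSC and above ABSC. With the number as a replicate block, ALSC over AFSC was at 1.12 (SE 0.31), ABSC over ALSC at -1.79 (SE 0.33) and ABSC over AFSC at -0.68 (SE 0.36). Library 1 was the highest in Cxcr4 in each cell type, by 1.14 on the log2 scale in ABSC, 0.55 in ALSC and 2.02 in AFSC against the mean of libraries 2 and 3.

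Ackr3 (ENSMUSG00000044337, chromosome 1, 90203980 to 90216751, plus strand), the scavenging receptor, separated ALSC more cleanly. It had 11, 20 and 25 reads in ABSC, 66, 58 and 83 in ALSC, and 33, 24 and 23 in AFSC. The corresponding levels were 0.540, 1.05 and 1.26 CPM in ABSC, 3.03, 3.03 and 4.23 CPM in ALSC, and 1.70, 1.13 and 1.08 CPM in AFSC. Every ALSC library was above all others, and ABSC and AFSC overlapped. The ALSC level was 2.63-fold that of AFSC (log2 1.39, SE 0.32), and ABSC was 3.60-fold lower than ALSC (-1.85, SE 0.33). ABSC over AFSC was at -0.45 (SE 0.35) and, without the 3 libraries numbered 1, at 0.07 (SE 0.33).

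**Figure D1:**
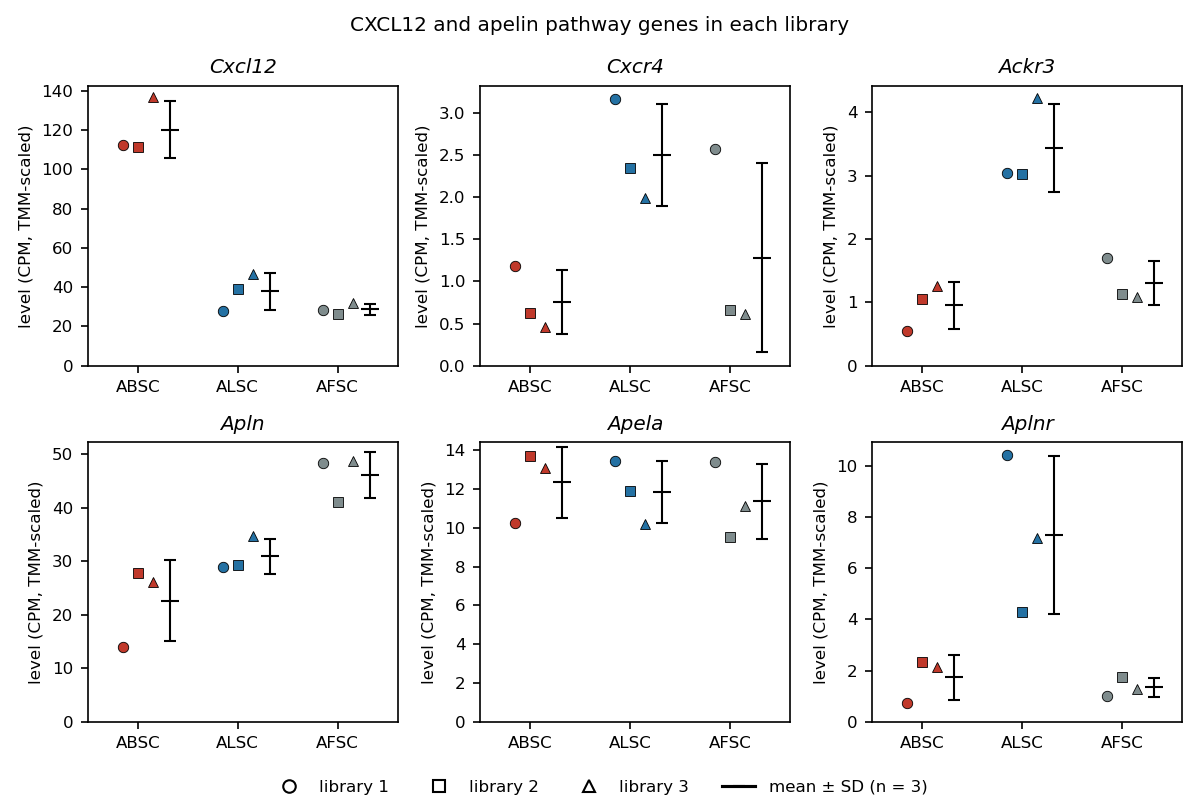
Level of each gene in CPM (TMM-scaled, linear axes from 0) in the 3 libraries of ABSC, ALSC and AFSC, with the mean and SD beside them. Cxcl12 was highest in the 3 ABSC libraries (111 to 137 CPM), Ackr3 and Aplnr in the 3 ALSC libraries, Apln in the 3 AFSC libraries, and Apela overlapped in all groups; the AFSC library 1 stood apart for Cxcr4.

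Apln (ENSMUSG00000037010, chromosome X, 48025146 to 48034853, minus strand), which encodes apelin, was lower in each cell type grown without bFGF. It stood at 14.0, 27.8 and 26.2 CPM in ABSC, at 28.9, 29.2 and 34.7 CPM in ALSC, and at 48.4, 41.1 and 48.8 CPM in AFSC. The 3 groups did not overlap, although the highest ABSC library and the lowest ALSC library were close. Means were 22.7 ± 7.50 CPM in ABSC, 30.9 ± 3.25 CPM in ALSC and 46.1 ± 4.32 CPM in AFSC. The log2 fold change was -1.02 (SE 0.21) for ABSC over AFSC, which is 2.03-fold lower, and -0.57 (SE 0.21) for ALSC over AFSC.

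The gap between ABSC and ALSC in Apln was small and leaned on ABSC 1. It measured -0.45 on the log2 scale (SE 0.21) with all libraries and -0.19 (SE 0.11) without ABSC 1. Leaving out ABSC 1 gave -0.77 (SE 0.11) for ABSC over AFSC, so that difference kept its direction with a smaller size.

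Apela (ENSMUSG00000079042, chromosome 8, 65028417 to 65037336, minus strand), the other ligand gene of APLNR, was at like levels in the 3 media. The libraries held 10.3, 13.7 and 13.1 CPM in ABSC, 13.4, 11.9 and 10.2 CPM in ALSC, and 13.4, 9.54 and 11.1 CPM in AFSC. All groups overlapped. Log2 fold changes were 0.12 for ABSC over AFSC, 0.06 for ALSC over AFSC and 0.06 for ABSC over ALSC, each with an SE of 0.17. Without the libraries numbered 1, Apela in ABSC over AFSC was at 0.38 (SE 0.12) and in ABSC over ALSC at 0.28 (SE 0.12). Apela shares 297 of its 1004 exonic bases with the noncoding gene Gm45886 on the same strand, which had 0 counts in all 9 libraries. Reads in the shared bases may have been counted for neither gene, so the 0 counts do not show that Apela lost none. No other member overlaps another gene in the GENCODE M21 annotation.

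Aplnr (ENSMUSG00000044338, chromosome 2, 85136225 to 85139923, plus strand) encodes the receptor of both peptides and was highest in ALSC. It had 15, 45 and 42 reads in ABSC, 227, 82 and 141 in ALSC, and 20, 37 and 27 in AFSC. The levels were 0.737, 2.35 and 2.13 CPM in ABSC, 10.4, 4.28 and 7.18 CPM in ALSC, and 1.03, 1.75 and 1.27 CPM in AFSC. All ALSC libraries lay above all others, with a wide spread among them, and ABSC and AFSC overlapped. The ALSC level was 5.39-fold that of AFSC (log2 2.43, SE 0.44). ABSC was at 0.36 over AFSC (SE 0.46).

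ABSC over ALSC was at -2.07 for Aplnr (SE 0.43), a level 4.21-fold lower in ABSC. Without the libraries numbered 1 it was at -1.35 (SE 0.24), and ALSC over AFSC at 1.92 (SE 0.25). Library 1 was the highest of its group in ALSC and the lowest in ABSC and in AFSC.

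In ABSC over AFSC, 2 of the 6 genes passed an edgeR adjusted p of 0.05, beside 7.98% of all genes tested: Cxcl12 was higher, beside 3.98% of all genes, and Apln lower, beside 4.0%. Their groups were also the 2 that did not overlap, beside 27.4% of all genes. In ALSC over AFSC, 2 passed, beside 7.04% of all genes: Ackr3 and Aplnr were higher, beside 3.54%, and 0 were lower, beside 3.50%. With Apln, 3 did not overlap, beside 28.5%. In ABSC over ALSC, 3 passed, beside 11.0%: Cxcl12 was higher, beside 5.41%, and Ackr3 and Aplnr were lower, beside 5.56%. Here 5 did not overlap, beside 28.9%. With the library number as a replicate block the counts were 2, 4 and 4 in the same order, and without the libraries numbered 1 they were 3, 4 and 4. Leaving out 1 library at a time gave 1 to 2, 0 to 3 and 3 to 4. Since the choice of the 6 genes used these contrasts, nothing is read from these counts. All 6 passed the filter on low counts.

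**Figure D2:**
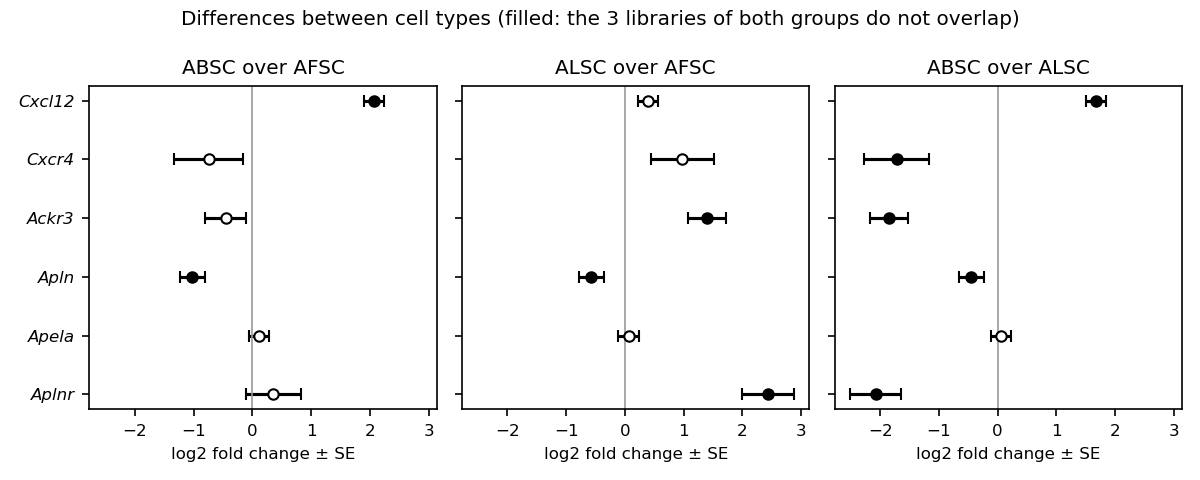
Log2 fold change with its SE for each gene in ABSC over AFSC, ALSC over AFSC and ABSC over ALSC; filled points mark groups whose 3 libraries do not overlap. Cxcl12 stood at 2.06 in ABSC over AFSC and Aplnr at 2.43 in ALSC over AFSC, and Apela lay between 0.06 and 0.12 in the 3 panels.

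Levels of different genes were set side by side per kilobase of gene length, as RPKM (CPM divided by the length of the gene model in kilobases). The Cxcl12 model is 8176 bases long and joins 4 transcripts with 4 different ends, so its RPKM may understate a short transcript. The Apela RPKM is understated if reads in the bases shared with Gm45886 were not counted. In ABSC, Cxcl12 (14.7 ± 1.77 RPKM) and Apela (12.3 ± 1.82 RPKM) were the highest, followed by Apln (7.20 ± 2.38 RPKM). In ALSC the order was Apela (11.8 ± 1.61 RPKM), Apln (9.83 ± 1.03 RPKM) and Cxcl12 (4.63 ± 1.16 RPKM). In AFSC it was Apln (14.6 ± 1.37 RPKM), Apela (11.3 ± 1.93 RPKM) and Cxcl12 (3.52 ± 0.338 RPKM).

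The first 2 genes of each of these orders overlapped in range over the libraries, and the gene after them lay below both. The 3 receptor genes were the lowest in every cell type. In ABSC they stood at 0.470 ± 0.237 RPKM for Aplnr, 0.417 ± 0.209 RPKM for Cxcr4 and 0.284 ± 0.111 RPKM for Ackr3. In ALSC they stood at 1.97 ± 0.831 RPKM for Aplnr, 1.38 ± 0.335 RPKM for Cxcr4 and 1.02 ± 0.207 RPKM for Ackr3. In AFSC they stood at 0.365 ± 0.0988 RPKM for Aplnr, 0.710 ± 0.620 RPKM for Cxcr4 and 0.390 ± 0.103 RPKM for Ackr3. Within each cell type the ranges of the 3 receptors overlapped.

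Ratios within a library put ligand and receptor transcripts on 1 scale. Cxcl12 over the sum of Cxcr4 and Ackr3, per kilobase, was 16.9, 20.6 and 26.6 in the ABSC libraries, 1.28, 2.16 and 2.42 in ALSC, and 1.78, 4.57 and 5.88 in AFSC. All ABSC values were above the rest, and ALSC and AFSC overlapped. The share of Cxcr4 in the summed Cxcr4 and Ackr3 was 57.6 ± 20.5% in ABSC, 57.1 ± 9.83% in ALSC and 58.9 ± 12.8% in AFSC. These shares overlapped, and library 1 had the highest in each cell type.

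On the apelin side, the summed ligand transcripts over Aplnr came to 73.7, 35.3 and 37.1 in ABSC, 7.99, 18.3 and 10.9 in ALSC, and 103, 47.7 and 77.5 in AFSC. ALSC was below the other cell types in every library, and ABSC and AFSC overlapped. Apln made up 30.4%, 39.3% and 39.0% of the summed Apln and Apela in ABSC, 40.7%, 43.9% and 52.1% in ALSC, and 53.5%, 57.9% and 58.3% in AFSC. The 3 groups did not overlap in this share. By these values, Apln was the larger part of the ligand transcripts in all AFSC libraries and in 1 ALSC library, and the smaller part in all ABSC libraries. If Apela reads were lost in the bases shared with Gm45886, these Apln shares are too high. Which ligand transcript was the larger in AFSC is therefore not settled.

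**Figure D3:**
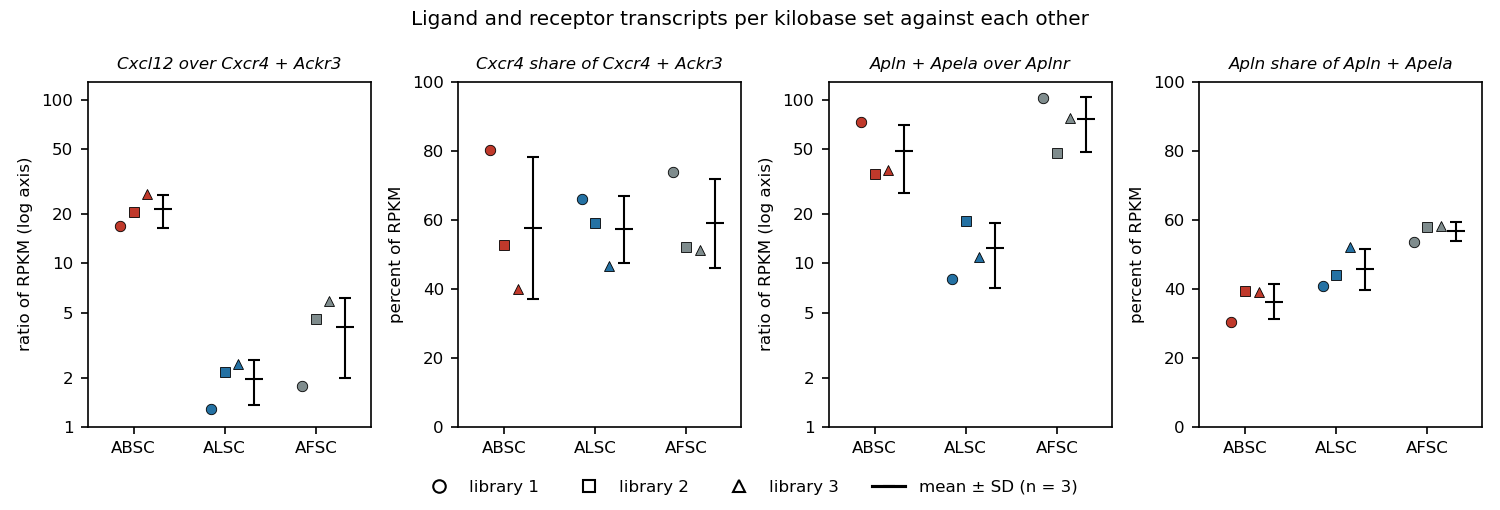
Ratios and shares of ligand and receptor transcripts per kilobase in each library of ABSC, ALSC and AFSC, with mean and SD; the 2 ratio panels have log axes. The RPKM ratio of Cxcl12 to the summed Cxcr4 and Ackr3 was 16.9 to 26.6 in the ABSC libraries. That of the summed Apln and Apela to Aplnr was 7.99 to 18.3 in the ALSC libraries.

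The genes with the most similar profile over the 9 libraries were sought among 9334 genes at 10 CPM or more, by the root mean square (RMS) difference of mean-centred log2 CPM. For Cxcl12 they were Sccpdh (RMS difference 0.20), the cell adhesion gene Kirrel (0.26) and Dpysl3 (0.28), against an RMS of 0.92 for Cxcl12 about its own mean. Sccpdh stood at 142 CPM in ABSC, 39.8 CPM in ALSC and 26.2 CPM in AFSC. The growth factor gene Fgf8 came first for Ackr3 (0.24) and second for Aplnr (0.53), at 18.8 CPM in ABSC, 71.0 CPM in ALSC and 26.8 CPM in AFSC. Sfmbt2, a Polycomb-group gene, came first for Aplnr (0.49), and Tfap2c, a trophoblast and germ cell factor, followed (0.57).

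The nearest to Apln were the signalling adaptor Shc4 (0.18), the transcription factor Sall1 (0.23) and Car2, a carbonic anhydrase (0.26). For Cxcr4 they were the glycolytic enzyme gene Pfkp (0.46), the interferon-induced gene Bst2 (0.48) and the sugar transporter gene Slc50a1 (0.48), at 0.93 for Cxcr4 about its own mean. For Apela, which varied little (0.19), they were Pdlim5 (0.11), Mgat1 (0.11) and Srprb (0.11). With 9 libraries in 3 groups, such likeness is a description.

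Genes that carry or limit the signal of these receptors were measured beside them. Of 34 genes for G protein subunits, arrestins, receptor kinases and RGS proteins (which switch G proteins off), 32 were tested. In ABSC over AFSC, 2 rose and 1 fell, 3 of 32 beside 7.98% of all genes, and 5 rose and 5 fell with the replicate block. The median log2 fold change was 0.06, against -0.0043 over all genes. The block called 3132 of the 16178 genes in ABSC over AFSC, 3590 in ALSC over AFSC and 4605 in ABSC over ALSC. Block counts of this and the later lists belong beside those numbers, and the percentages of all genes belong to the fit without the block. Gnao1, a subunit of the inhibitory class, rose to 30.5 ± 9.70 CPM in ABSC, against 6.67 ± 1.32 CPM in AFSC (log2 2.19, SE 0.25, edgeR adjusted p = 0.000544). Gng2 rose less (0.53, SE 0.09, edgeR adjusted p = 0.00625). Gnao1 and Gng2 each share exonic bases with a noncoding gene that had under 20 counts in all.

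Arrb1, which encodes an arrestin that binds activated receptors, was called in all 3 comparisons. It fell to 33.9 ± 0.811 CPM in ABSC, against 63.1 ± 1.98 CPM in AFSC (log2 -0.90, SE 0.07, edgeR adjusted p = 7.79e-05). It rose to 80.5 ± 6.10 CPM in ALSC, against the same AFSC level (0.35, SE 0.07, edgeR adjusted p = 0.0171), but that call was lost without AFSC 1, AFSC 2 or AFSC 3 (edgeR adjusted p = 0.0557, 0.0641 and 0.0900). ABSC over ALSC was at -1.25 (SE 0.07, edgeR adjusted p = 7.67e-06). The other arrestin gene, Arrb2, stood at 42.1 ± 12.0 CPM in ABSC, 45.6 ± 8.50 CPM in ALSC and 40.5 ± 5.64 CPM in AFSC.

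In ALSC over AFSC the same list had 2 genes higher and 1 lower, beside 7.04% of all genes (2 and 5 with the block; median -0.04, against 0.0026 over all genes). Gnb4 rose (0.73, SE 0.13, edgeR adjusted p = 0.0116) and Gng12 fell (-0.48, SE 0.09, edgeR adjusted p = 0.0130). Each call was lost without AFSC 2 (edgeR adjusted p = 0.0626 for Gnb4 and 0.0680 for Gng12) and without AFSC 3 (0.0686 and 0.0605), and that of Gng12 also without ALSC 2 (0.0504).

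In ABSC over ALSC, 6 rose and 3 fell, 9 of 32 beside 11.0% of all genes (10 and 4 with the block; median 0.07, against -0.011 over all genes). Gnao1 (1.93, edgeR adjusted p = 0.000977) and Rgs17 (1.51, edgeR adjusted p = 0.00759) rose, and Gnb4 fell with Arrb1 (-1.13, edgeR adjusted p = 0.000783). Gnai2, the most abundant inhibitory subunit of the list, was at 398 ± 24.6 CPM in ABSC, 398 ± 20.8 CPM in ALSC and 393 ± 25.7 CPM in AFSC.

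Proteases and binding partners that shape the ligands formed a list of 18 genes, of which 15 were tested. In ABSC over AFSC, 2 rose and 1 fell, beside 7.98% of all genes (6 and 3 with the block; median 0.09). Mme, which encodes neprilysin, a protease that can cleave apelin, rose to 71.4 ± 27.2 CPM in ABSC, against 20.1 ± 3.63 CPM in AFSC (1.83, SE 0.32, edgeR adjusted p = 0.00650; 0.0668 without a filter on low counts). Furin, a convertase of secreted precursors, rose to 42.5 ± 8.57 CPM in ABSC, against 25.7 ± 3.52 CPM in AFSC (0.73, SE 0.16, edgeR adjusted p = 0.0176). That call was lost without AFSC 2 or AFSC 3 (edgeR adjusted p = 0.0789 and 0.0832).

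The heparan sulphate carrier Sdc2 fell in ABSC over AFSC (-0.43, edgeR adjusted p = 0.0270), a call lost without AFSC 2, AFSC 3, ABSC 2 or ABSC 3 (edgeR adjusted p of 0.129, 0.0778, 0.119 and 0.0866). Dpp4, which encodes a peptidase that trims CXCL12, had 2 reads in all 9 libraries together. Mif, a further ligand of CXCR4, was abundant, at 579.5 ± 53.8 CPM in ABSC, 578 ± 18.3 CPM in ALSC and 657 ± 79.0 CPM in AFSC, and was not called in these comparisons.

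In ALSC over AFSC, 1 of the 15 fell and 0 rose, beside 7.04% of all genes (2 fell with the block; median -0.07). It was Hspg2, the basement membrane proteoglycan perlecan, which fell to 260.3 ± 22.0 CPM in ALSC, against 359 ± 14.1 CPM in AFSC (-0.46, SE 0.07, edgeR adjusted p = 0.00399). In ABSC over ALSC, 4 rose and 1 fell, beside 11.0% of all genes (7 and 1 with the block; median 0.19). Mme (1.64, edgeR adjusted p = 0.00951; 0.0761 without a filter on low counts) and Hspg2 (0.71, edgeR adjusted p = 0.000185) rose. So did Pcsk6 (0.68, edgeR adjusted p = 0.0229), a convertase related to furin; its call was lost without ABSC 2 or ABSC 3 (edgeR adjusted p = 0.0845 and 0.0844) and in a fit of the 2 groups alone (0.0510). Furin (0.62, edgeR adjusted p = 0.0303) lost its call without ALSC 2, ALSC 3 or ABSC 2 (edgeR adjusted p = 0.0840, 0.0938 and 0.0704), with scaling by library size (0.0650) and in a fit of the 2 groups alone (0.0605).

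**Figure D4:**
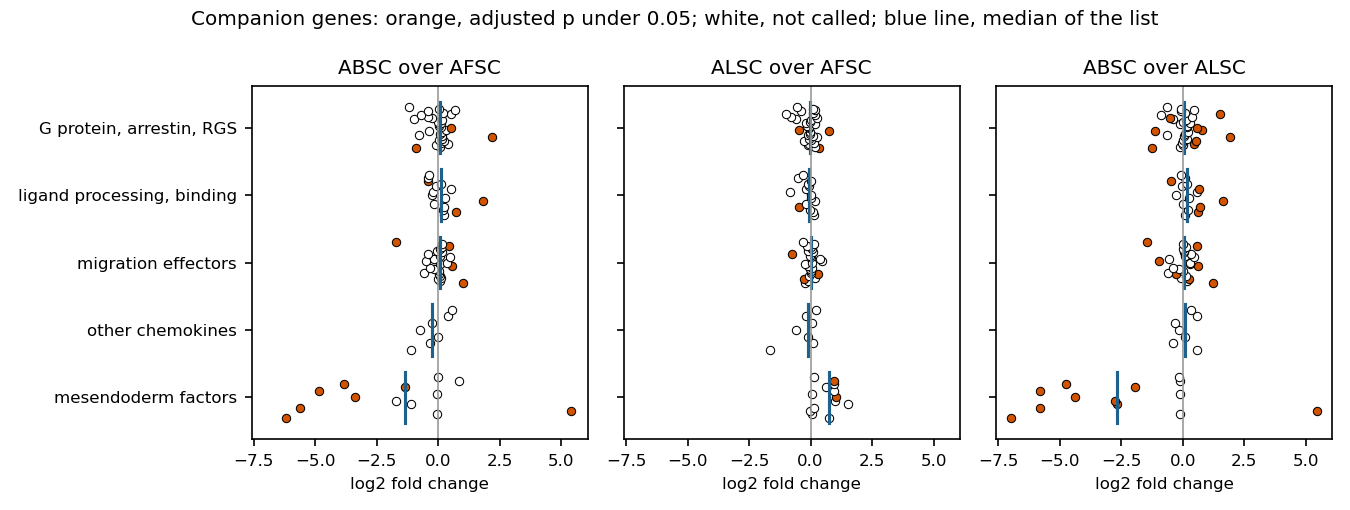
Log2 fold change of each tested gene in 5 companion lists (rows) for the 3 comparisons (panels); orange points passed an edgeR adjusted p of 0.05, white points did not, and the blue line is the median of the list. The largest calls of the signalling lists were Gnao1 (2.19) and Mme (1.83) in ABSC over AFSC, and the mesendoderm factors spread from -6.97 for Cer1 to 5.45 for Evx1 in ABSC over ALSC. Cer1 averaged below the 3-read level in ABSC.

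Effectors that link such receptors to the cytoskeleton formed a list of 30 genes, 25 of them tested. In ABSC over AFSC, 3 rose and 1 fell, beside 7.98% of all genes (5 and 4 with the block; median 0.06). Bcar1, the adaptor p130Cas of focal adhesions, rose to 264 ± 17.9 CPM in ABSC, against 132 ± 8.24 CPM in AFSC (1.00, SE 0.09, edgeR adjusted p = 0.000121). Pak1, a kinase activated by Rac and Cdc42, rose (0.55, SE 0.07, edgeR adjusted p = 0.00102), and Vav3, an exchange factor for Rac, fell (-1.73, SE 0.25, edgeR adjusted p = 0.00234) to 0.810 CPM in ABSC, against 2.71 CPM in AFSC. Tiam1 rose (0.42, edgeR adjusted p = 0.0219), a call lost without AFSC 2, ABSC 2 or ABSC 3 (edgeR adjusted p = 0.0638, 0.0896 and 0.0648).

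In ALSC over AFSC, 1 of the 25 rose and 2 fell, beside 7.04% of all genes (3 and 4 with the block; median 0.00032). Ptk2b, a kinase related to focal adhesion kinase, fell (-0.76, edgeR adjusted p = 0.00947), a call lost without AFSC 2 or AFSC 3 (edgeR adjusted p = 0.0517 and 0.0523). The actin-severing gene Cfl1 fell by 0.28 on the log2 scale (edgeR adjusted p = 0.0168; 0.0859 without AFSC 2 and 0.0831 without AFSC 3), and Dock1, an exchange factor for Rac, rose by 0.29 (edgeR adjusted p = 0.0422), a call lost without any 1 of AFSC 2, AFSC 3, ALSC 2, ALSC 3, ABSC 2 and ABSC 3 (edgeR adjusted p = 0.0699 to 0.192) and in a fit of the 2 groups alone (0.0753). In ABSC over ALSC, 5 rose and 3 fell, beside 11.0% (9 and 6 with the block; median 0.04). Bcar1 (1.22, edgeR adjusted p = 2.73e-05) and Pak1 (0.63, edgeR adjusted p = 0.000390) rose, and Vav3 fell (-1.44, edgeR adjusted p = 0.00591). Pik3r5, a regulatory subunit of the PI3 kinase that G proteins activate, fell as well (-0.96, edgeR adjusted p = 0.0205). That call was lost without ALSC 1, ABSC 2 or ABSC 3 (edgeR adjusted p = 0.0550, 0.0848 and 0.0739) and in a fit of the 2 groups alone (0.0648).

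Other chemokine receptors and ligands were few. Of 21 other receptor genes, 1 had no read in any library and 1, Ackr4, a further scavenging receptor, passed the filter on low counts. It stood at 1.22 ± 0.218 CPM in ABSC, 1.44 ± 0.149 CPM in ALSC and 2.05 ± 0.442 CPM in AFSC, and 479 of its exonic bases overlap Acad11. Of 27 other ligand genes, 7 had no read and 7 were tested. Ccl25 (9.63 ± 1.19 CPM in ABSC, 12.8 ± 0.954 CPM in ALSC and 12.1 ± 1.99 CPM in AFSC) and Cx3cl1 (9.32 ± 1.08, 8.86 ± 1.23 and 9.43 ± 2.32 CPM in the same order) were the highest, and 204 exonic bases of Ccl25 overlap Elavl1, an abundant gene.

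With edgeR, 0 of these 7 ligand genes were called in each comparison, beside 7.98%, 7.04% and 11.0% of all genes in ABSC over AFSC, ALSC over AFSC and ABSC over ALSC. An unadjusted edgeR p under 0.05 was found for 1 in each. DESeq2 called 0 in ABSC over AFSC, 1 in ALSC over AFSC and 0 in ABSC over ALSC. With the replicate block edgeR called 1 lower and 0 higher in each comparison, beside 3132, 3590 and 4605 of the 16178 genes in the same order. Without the libraries numbered 1 it called 1 higher and 2 lower in ABSC over AFSC, 0 and 1 in ALSC over AFSC, and 2 and 1 in ABSC over ALSC. More of all genes were called in that fit too. Ackr4 was called by neither tool; its unadjusted edgeR p was under 0.05 in ABSC over AFSC. The 27 ligand genes together summed to 22.1 to 27.9 CPM in ABSC, below Cxcl12 alone in each library. Their sum was 26.3 to 30.0 CPM in ALSC and 22.5 to 33.0 CPM in AFSC, ranges that overlap with Cxcl12 there.

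Cxcr4 is widely used with Sox17 and Foxa2 to mark definitive endoderm, and Aplnr marks nascent mesoderm in embryos. Of 13 mesendoderm factors tested, 1 rose and 6 fell in ABSC over AFSC, beside 7.98% of all genes (median -1.33), 2 rose and 0 fell in ALSC over AFSC, beside 7.04% (median 0.77), and 1 rose and 8 fell in ABSC over ALSC, beside 11.0% (median -2.66). Those that rose in ALSC were the streak genes Gsc (1.02, edgeR adjusted p = 0.0167; 0.0557 to 0.0758 without AFSC 1, AFSC 2, AFSC 3 or ALSC 3) and T (0.94, edgeR adjusted p = 0.0375). The call of T was lost with the replicate block (edgeR adjusted p = 0.0708), without a filter on low counts (0.205) and without any 1 of the AFSC or ALSC libraries (0.0660 to 0.121); with the block 6 of the 13 rose there. Foxa2 stood at 0.307 ± 0.142 CPM in ABSC, 17.2 ± 2.98 CPM in ALSC and 15.5 ± 1.16 CPM in AFSC, and Sox17 at 0.121 ± 0.132, 3.37 ± 0.410 and 1.76 ± 1.02 CPM in the same order. Sox17 and Foxa2 fell in ABSC over AFSC and over ALSC (edgeR adjusted p = 0.00634 and 4.19e-06 over AFSC, 0.00135 and 1.51e-06 over ALSC). Cer1 fell (-6.20 over AFSC and -6.97 over ALSC, edgeR adjusted p = 0.00136 and 0.000533), as did Lhx1 (-4.84 and -5.79, edgeR adjusted p = 0.00279 and 0.000871). Cer1 averaged 0.0512 CPM in ABSC, below the 3-read level, 7.10 ± 4.16 CPM in ALSC and 4.20 ± 2.18 CPM in AFSC. Lhx1 averaged 0.269 CPM in ABSC, 15.3 ± 11.5 CPM in ALSC and 7.91 ± 3.94 CPM in AFSC. With so few reads in ABSC, the sizes of these changes are loosely set. Evx1, a posterior streak gene, rose (5.41 and 5.45, edgeR adjusted p = 3.57e-05 and 2.53e-05); 73 of its exonic bases overlap its antisense gene Evx1os.

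Markers of other cell types that use these ligands and receptors in tissues were read in each library. Of 12 endothelial markers, 5 reached a mean of 1 CPM, and their sum was 46.3 to 62.3 CPM in ABSC, 53.4 to 60.2 CPM in ALSC and 69.2 to 78.3 CPM in AFSC, most of it Flt1 and Egfl7. Among the other endothelial genes of the list, Cdh5, Tie1 and Emcn had 16, 1 and 1 reads in all 9 libraries, while Tek and Pecam1 had 606 and 328. The 9 fibroblast markers summed to 11.2 to 18.5 CPM in ABSC, 12.8 to 27.0 CPM in ALSC and 18.0 to 20.0 CPM in AFSC, with Dcn and Lum at 10 and 2 reads in all.

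The 9 blood markers summed to 2.68 to 4.18 CPM in ABSC, 4.23 to 5.10 CPM in ALSC and 3.86 to 5.53 CPM in AFSC. Itgam had 7 reads in all and Hbb-bh1 0, while Runx1 and Ptprc had 368 and 99. Of these 3 lists, 5 endothelial, 4 blood and 6 fibroblast markers were tested. Among them edgeR called 0 in ABSC over AFSC, beside 7.98% of all genes, and 0 in ALSC over AFSC, beside 7.04%. With so few markers tested, nothing is read from these counts. An unadjusted edgeR p under 0.05 was found for 2, 1 and 2 of the endothelial, blood and fibroblast markers in ABSC over AFSC, and for 2, 3 and 4 in ALSC over AFSC. DESeq2 called 1 and 2 endothelial markers in these comparisons. With the replicate block edgeR called 1 endothelial, 0 blood and 2 fibroblast markers in ABSC over AFSC, beside 3132 of the 16178 genes. It called 2 of each list in ALSC over AFSC, beside 3590. In ABSC over ALSC, beside 11.0% of all genes, edgeR called Gata1 (-1.70, edgeR adjusted p = 0.0235) and Pdgfra (-1.52, edgeR adjusted p = 0.0361), each under 2 CPM in both cell types. The Gata1 call was lost without the libraries numbered 1 (edgeR adjusted p = 0.0672), without any 1 of ALSC 1, ALSC 3, ABSC 1 and ABSC 3 (0.0560 to 0.0960) and in a fit of the 2 groups alone (0.0551). That of Pdgfra was lost without any 1 of AFSC 2, ALSC 1, ALSC 2, ALSC 3, ABSC 1 and ABSC 2 (0.0600 to 0.124) and in a fit of the 2 groups alone (0.0721). The part of such cells in the levels of the 6 genes was not tested.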

How the data were processed

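RNA was measured in 9 libraries, 3 per cell type, grouped by title. The deposited table holds unnormalised counts of reads, which the authors made with HISAT2 2.0.5 and featureCounts 1.5.0-p3, per the submitters' processing notes; the notes name mm9. The table's coordinates equal those of GENCODE M21 (GRCm38) for 98.26% of the genes found there, so they are read as GRCm38. Library preparation selected poly-A RNA with a kit that does not mark strand, per the labels' protocols, so overlapping genes cannot be told apart.

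The 346 entries without an Ensembl ID held 0.208% to 0.227% of counts and were left out. Of 54532 genes, filterByExpr (minimum count 10, minimum total 15) kept 16178. In R 4.3.3, edgeR 4.0.16 scaled libraries by TMM (factors 0.963 to 1.06) and fitted all 9 with group means and robust quasi-likelihood dispersions (6 residual degrees of freedom). F tests were 2-sided, with Benjamini-Hochberg adjustment over all genes tested and a threshold of 0.05; a gene rose or fell where it passed. SE is the absolute log2 change over the square root of F. Neighbour profiles used log2 CPM with a prior count of 2. RPKM used the gene length of the table. The 3-read level covers counting error only. The procedure was tested on simulated data that held no effect of library number, so that test does not cover the differences between library numbers.

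Libraries numbered 1 deviated together (correlations 0.464 to 0.554 between cell types) and away from numbers 2 and 3 of the other cell types (-0.426 to -0.304). Numbers 2 and 3 correlated with their own number at 0.197 to 0.356 and with each other at 0.221 to 0.273. Pairing by number is thus not shown for numbers 2 and 3. The number was still used as the replicate block, and the labels do not say what it stands for. The 6 genes and the companion lists were chosen with earlier results of these data known. Named companion genes were up to 4 called genes per list and comparison with the largest change among those with a group mean of 1 CPM or more, and markers by their level; Arrb2, Gnai2, Mif, Dpp4 and the other chemokine genes were named after their values were seen. DESeq2 1.42.0, other scalings, no filter, a replicate block, 2-group fits and leaving out libraries were alternatives. Leaving out all libraries numbered 1 was added after seeing the data.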

Additional observations from a re-analysis of the deposited data

Results flagged for a closer look

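In 3 of the genes, library 1 lay above libraries 2 and 3 in one cell type and below both in another; the difference between cell types was not tested. Log2 differences are library 1 minus the mean of libraries 2 and 3. Aplnr stood at -1.60 in ABSC, 0.91 in ALSC and -0.53 in AFSC. Ackr3 stood at -1.09 in ABSC and 0.62 in AFSC, with ALSC 1 between its other libraries (-0.24). Apela stood at -0.38 in ABSC, 0.28 in ALSC and 0.38 in AFSC. The Ackr3 values rest on 11 to 33 reads per library in ABSC and AFSC.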

How the results depend on the processing

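The numbers of genes called in ABSC over AFSC, ALSC over AFSC and ABSC over ALSC were 1291, 1139 and 1775. With the replicate block, which pairs libraries by number, they were 3132, 3590 and 4605, and of the companion genes 49, 37 and 62 were called, against 26, 16 and 41. Without the libraries numbered 1 they were 4622, 4122 and 5225, with 67, 44 and 70 companion genes. A fit of only the 2 groups compared gave 1041 for ABSC over ALSC. Leaving out 1 library at a time gave 667 to 1723, 345 to 1522 and 846 to 2337 genes, and 19 to 34, 6 to 20 and 29 to 42 companion genes. Scaling by library size without TMM gave 666 higher and 444 lower genes in ALSC over AFSC (573 and 566 with TMM), and 615 higher and 1135 lower genes in ABSC over ALSC (875 and 900 with TMM).

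Of the 18 log2 fold changes of the 6 genes under 16 alternatives each, 281 values moved by less than the spread between libraries and 7 by more. Those 7 were Cxcr4 without AFSC 1 (0.25 in ABSC over AFSC and 1.96 in ALSC over AFSC), and, without the libraries numbered 1, Cxcr4 in ALSC over AFSC (1.76), Ackr3 in ABSC over AFSC (0.07), Apela in ABSC over AFSC (0.38) and ABSC over ALSC (0.28), and Aplnr in ABSC over ALSC (-1.35). The causes were not tested. Reads were few for Cxcr4, at 9 to 69 per library, and for Ackr3, at 11 to 83, which limits the precision of both.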
